A study of Mus musculus with 9 samples.

Results

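The contractile and myofibroblast genes Acta2, Actg2, Lmod1, Myl9, Tpm1, Tpm2, Cnn1, Cnn2, Tagln and Cald1 were selected by symbol from the 54532 genes in the deposited table. All 10 had enough counts to be among the 14004 genes tested. RNA was taken at 72 h from ST2 cells, a wild-type mouse line of bone marrow stroma that the labels call mesenchymal stem cells, so that every result rests on 1 line. The vehicle group (Veh) received neither agent, and what the vehicle consisted of is not given in the sources used here. The second group (rhWnt3a) received recombinant human Wnt3a at 50 ng/ml. The third (rhWnt3aOSMI) was taken, from the sample titles, as rhWnt3a together with OSMI at 20 µM, an inhibitor of the O-GlcNAc transferase OGT, although the treatment label of these samples names OSMI alone. No group received only OSMI, so its effect without rhWnt3a cannot be told apart. Each group had 3 libraries.

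Contraction of a non-muscle or smooth muscle cell is driven by myosin pulling on actin filaments. The filaments are built from actin monomers, coated by tropomyosins and decorated by calponin, transgelin and caldesmon, while phosphorylation of the regulatory light chain switches myosin on. Many of these genes are known targets of serum response factor (SRF), which binds CArG boxes and is coactivated by myocardin or, in fibroblasts, by the myocardin-related factors MRTF-A and MRTF-B in answer to actin assembly. Smooth muscle α-actin in stress fibers is the usual mark of a myofibroblast, and marrow stromal cells in culture are known to carry it.

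Because SRF binds near the start of several of these genes, the RefSeq promoter windows (GRCm38.p6, 250 bases before to 50 after the start) of the 8 members with an entry were searched on both strands. Cnn2 and Myl9 held a perfect CArG box, a motif present in 1.81% of the 27025 genes with a window. Acta2 and Myl9 held a box with 1 base of the core exchanged for C or G, which 9.69% of genes had. Capitals show the perfect box of Cnn2 and Myl9, and for Acta2 the changed box that lies farther from the start. All are written 5′ to 3′ on the strand of the gene. The gene model of Acta2 in GENCODE M21 reaches to 34255590 and so includes its stretch.
Acta2, chr19:34255438-34255467, minus strand: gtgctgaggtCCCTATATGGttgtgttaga
Cnn2, chr10:79988499-79988583, plus strand: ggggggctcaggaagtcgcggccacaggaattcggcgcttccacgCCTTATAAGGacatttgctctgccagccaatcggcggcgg
Myl9, chr2:156775258-156775357, plus strand: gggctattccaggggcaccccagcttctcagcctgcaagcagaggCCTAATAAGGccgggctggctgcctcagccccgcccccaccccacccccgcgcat
The capitals begin 84, 56 and 161 bases before the RefSeq start, respectively, and 1 further site with a changed core lay in the Acta2 window, at 34, and in the Myl9 window, at 99. CATTCC, the core of the site bound by TEAD factors, was found in Acta2, Tpm1, Cald1 and Lmod1, or 4 of 8, against 16.6% of all genes. Neither CTTTGA nor CTTTGT, the core letters of TCF/LEF sites, occurred in any of the 8 windows, while 34.5% of all genes held at least 1. These matches describe the letters of short windows only, and binding was not measured.

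The libraries were sequenced to similar depth, from 16135898 to 17583945 counts, and 3 counts correspond to 0.170 to 0.191 CPM, the unit used below, in which counts are scaled by library size and TMM factor to a common total. The 11 bone marrow stromal markers were all detected in each group, whereas 10 markers of blood and endothelial cells summed to at most 2.20 CPM per library. Vehicle replicate 3, rhWnt3a replicate 2 and rhWnt3aOSMI replicate 3 each lay apart from the other pair of their group, with mean squared log2 differences of 0.373 to 0.454 from these against 0.111 to 0.119 within the pairs. Members followed this split in part, most clearly with rhWnt3a. Vehicle replicate 3 was the highest of its group for 7 of 10 members and rhWnt3a replicate 2 for 9, where 43.6% and 44.0% of all tested genes peaked in these libraries. OSMI replicate 3 was the lowest for 6 members, against 45.1% of all genes, which is not far from that share. It was the highest for 2, Cald1 and Lmod1, against 42%. Results that rest on these libraries are therefore given with and without them. Leaving out all 3 keeps only the closest pair of each group, picked from these same data. The p-values of that fit understate the spread and serve as description only. Fold changes are on the log2 scale from 1 edgeR fit (quasi-likelihood, two-sided) of the 9 libraries, and a gene was called when its log2 fold change exceeded 0.5 in size and its p, adjusted by the method of Benjamini and Hochberg, was under 0.05. With 3 libraries against 3 an exact permutation test of a single gene cannot go below 0.1, so each call draws on the spread shared across genes.

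To ask what rhWnt3a did to the contractile genes, the treated libraries were compared with vehicle. rhWnt3a significantly lowered 7 of the 10 members, namely Acta2, Actg2, Lmod1, Myl9, Tpm1, Cnn1 and Tagln, and raised none. Over all tested genes, 5.86% were called lower and 8.78% in either direction. The members' median log2 fold change was −1.81, against 0.04 for all genes. For 9 of 10 members, each rhWnt3a library lay below every vehicle library, which held for 14.2% of all genes, with 26.4% apart in either direction. Together the members gave 4700 to 5183 CPM with vehicle and 2029 to 2396 with rhWnt3a, or 0.493% ± 0.026 and 0.215% ± 0.024 of all counts (mean ± SD, n = 3). In bulk RNA, fewer cells that express these genes and less of their mRNA in each cell cannot be told apart.

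**Figure D1:**
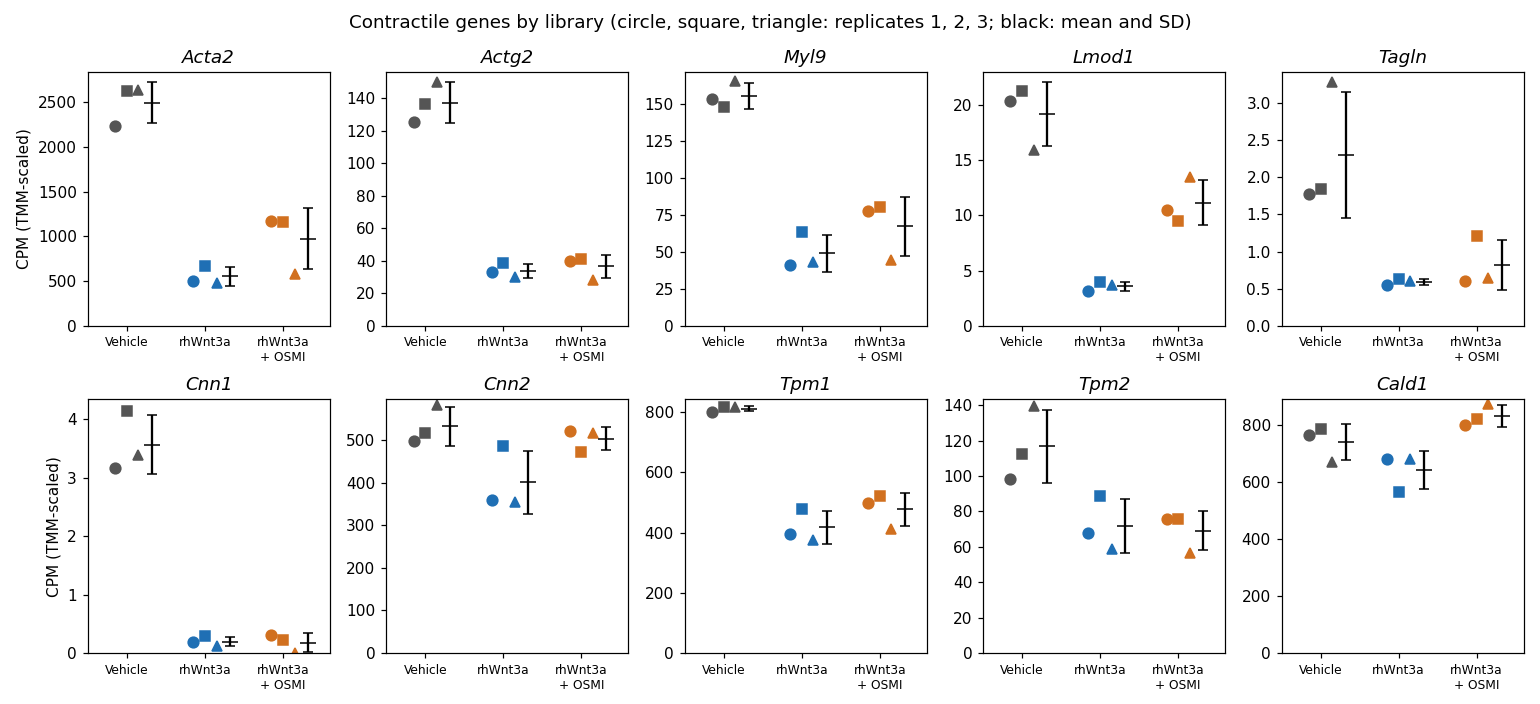
CPM (TMM-scaled, linear axes from 0) of the 10 contractile genes in each of the 9 libraries, with circle, square and triangle for replicates 1, 2 and 3 and black marks for the group mean and SD. Vehicle libraries lie above the rhWnt3a libraries for every gene but Cald1, and the libraries with OSMI stay near rhWnt3a for Actg2, Tpm2 and Cnn1 but rise clear of it for Lmod1.

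Acta2 (ENSMUSG00000035783, chromosome 19, 34241090 to 34255336 in GRCm38, minus strand) encodes smooth muscle α-actin and was the most abundant member with vehicle. It measured 2234, 2627 and 2634 CPM in the vehicle libraries, and 506, 670 and 480 with rhWnt3a. The groups were widely apart, and the decrease was 4.52-fold (log2 fold change −2.18, SE 0.27, adjusted p = 0.000871). The libraries with rhWnt3a and OSMI gave 1175, 1164 and 583 CPM. Replicates 1 and 2 of these stood above all rhWnt3a libraries, while replicate 3 fell between rhWnt3a replicates 1 and 2. The rise upon OSMI was thus not called (0.82, SE 0.26, adjusted p = 0.109), with a 95% interval of 0.23 to 1.41. Without OSMI replicate 3 it was 1.08 (adjusted p = 0.00817), and without the 3 libraries that lay apart 1.24 (adjusted p = 5.23e-10). The last p rests on the closest pair of each group and understates the spread. Acta2 remained lower than in vehicle even with OSMI (−1.36, SE 0.27, adjusted p = 0.00794).

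Actg2 (ENSMUSG00000059430, chromosome 6, 83512905 to 83536265, minus strand), the γ-actin of visceral smooth muscle, fell to a like extent with rhWnt3a. Its rise upon OSMI was not called either, and the 2 actin genes were not tested against each other. Vehicle libraries held 125, 136 and 150 CPM, rhWnt3a libraries 33.0, 38.7 and 29.9, and libraries with OSMI 40.1, 41.2 and 28.2. The treated groups overlapped. The log2 fold change was −2.02 with rhWnt3a (SE 0.18, adjusted p = 0.000114) and −1.91 with rhWnt3a and OSMI (SE 0.18, adjusted p = 0.000128), both against vehicle. Upon adding OSMI it was 0.11 (95% interval −0.27 to 0.49, adjusted p = 0.722). Acta2 and Actg2 are related in sequence to the other actins, but no other gene was at least 97% identical to either transcript over 100 bases. The longest match of Acta2 was with Acta1, at 85.4% over 1133 bases.

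Lmod1 (ENSMUSG00000048096, chromosome 1, 135324807 to 135368065, plus strand) encodes leiomodin 1, which starts new actin filaments in smooth muscle cells. It was the only member that OSMI significantly raised. Its levels were 20.3, 21.3 and 15.9 CPM with vehicle, 3.16, 3.98 and 3.65 with rhWnt3a, and 10.5, 9.53 and 13.5 with OSMI. The 3 groups did not overlap at all. Lmod1 decreased by 2.41 on the log2 scale with rhWnt3a (SE 0.20, adjusted p = 8.80e-05) and increased 3.09-fold when OSMI was added (1.63, SE 0.20, adjusted p = 0.00276). Both calls held in all 19 alternative ways of processing that kept the fold threshold of 0.5, the alternatives counted for single genes here and below. It stayed 1.72-fold below vehicle (−0.78, SE 0.19, adjusted p = 0.0197), a call that was lost in 6 of 19 alternatives, among them the fits without vehicle replicate 1, vehicle replicate 2, OSMI replicate 1 or OSMI replicate 2 (adjusted p = 0.0848, 0.102, 0.0905 and 0.0925), and the fit with a replicate block (0.0627). Lmod1 also differed from the actins in that OSMI replicate 3 was the highest of its group rather than the lowest.

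Myl9 (ENSMUSG00000067818, chromosome 2, 156775420 to 156781658, plus strand), a regulatory light chain of myosin, measured 154, 148 and 166 CPM with vehicle and 40.9, 63.7 and 43.2 with rhWnt3a. The groups were far apart, with a log2 fold change of −1.66 (SE 0.24, adjusted p = 0.00207). With OSMI the values were 77.7, 80.2 and 44.5. As for Acta2, OSMI replicates 1 and 2 were above every rhWnt3a library and replicate 3 was not. The difference of 0.45 (SE 0.24, 95% interval −0.08 to 0.98) was not called (adjusted p = 0.287). It was 0.90 (adjusted p = 1.39e-08) without the 3 libraries that lay apart, a fit whose p understates the spread. Once a trend on gene length was taken out, it was 0.78 (adjusted p = 0.00498). Against vehicle the decrease remained significant in the presence of OSMI (−1.21, SE 0.24, adjusted p = 0.00823). Its near relatives Myl12a and Myl12b, which encode the non-muscle light chains, match Myl9 at 85.7% and 86.5% over 517 bases.

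Of the tropomyosins, which lie along the actin filament and govern access of myosin, Tpm1 (ENSMUSG00000032366, chromosome 9, 67022590 to 67049406, minus strand) was measured with the least spread. It gave 802, 817 and 817 CPM with vehicle, 396, 479 and 377 with rhWnt3a, and 497, 521 and 413 with OSMI. All treated libraries were below all vehicle libraries, at −0.96 (SE 0.15, adjusted p = 0.00306) and −0.77 (SE 0.15, adjusted p = 0.00784). Both calls held in 19 of 19 alternatives but lie within a log2 threshold of 1. Tpm2 (ENSMUSG00000028464, chromosome 4, 43514711 to 43523765, minus strand) showed 98.5, 112 and 139 CPM, then 67.7, 88.5 and 58.6, and then 75.5, 75.7 and 56.4. Treated libraries again stayed below vehicle, but the call was close to the threshold. With rhWnt3a the difference of −0.70 (SE 0.20) missed it (adjusted p = 0.0557), passing in 9 of 19 alternatives. With rhWnt3a and OSMI the difference of −0.75 (SE 0.20) passed (adjusted p = 0.0299), but not in 7 of 19. Those included the fits without vehicle replicate 2 or 3, rhWnt3a replicate 1, or OSMI replicate 1, 2 or 3 (adjusted p = 0.0897, 0.0814, 0.0595, 0.0673, 0.0641 and 0.0764) and the replicate block (0.0654). OSMI changed neither tropomyosin detectably relative to rhWnt3a (0.19, 95% interval −0.14 to 0.53 for Tpm1, and −0.05, −0.49 to 0.39 for Tpm2). Tpm1 has 16 protein-coding transcripts in GENCODE M21 and Tpm2 has 4, so that muscle and non-muscle forms are summed in these counts.

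The calponins, which bind actin and restrain the myosin motor, responded unequally. Cnn1 (ENSMUSG00000001349, chromosome 9, 22099216 to 22109630, plus strand), the smooth muscle form, was scarce. Its counts were 52, 65 and 60 with vehicle, 3, 5 and 2 with rhWnt3a, and 5, 4 and 0 with OSMI. The summed counts fell from 177 to 10, or 18.1-fold (95% interval 9.59 to 38.3 from counting error only), and the decrease was significant (adjusted p = 0.00121). It was 20.2-fold (10.4 to 44.9) with OSMI present (adjusted p = 0.000940). Between the treated groups, with 10 and 9 counts in all, no difference was detectable at this depth (ratio 0.893, interval 0.321 to 2.45). Cnn2 (ENSMUSG00000004665, chromosome 10, 79988584 to 79996062, plus strand), the widely expressed form, measured 497, 516 and 583 CPM with vehicle, 360, 486 and 355 with rhWnt3a, and 521, 471 and 517 with OSMI. The rhWnt3a libraries were all below those of vehicle, but the difference of −0.41 (SE 0.16) was not called (adjusted p = 0.173). It was called only without the 3 libraries that lay apart, at −0.54 (adjusted p = 2.80e-06), a fit whose p understates the spread. With OSMI the level of Cnn2 overlapped that of vehicle (−0.08, 95% interval −0.43 to 0.27).

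Tagln (ENSMUSG00000032085, chromosome 9, 45929619 to 45936058, minus strand) encodes transgelin, also called SM22α, an actin-bundling protein that is usually abundant where Acta2 is. Here it had only 29, 29 and 58 counts with vehicle, 9, 11 and 10 with rhWnt3a, and 10, 21 and 11 with OSMI. Vehicle libraries were above all others, and the decreases of −1.95 (SE 0.39, adjusted p = 0.0116) with rhWnt3a and −1.49 (SE 0.38, adjusted p = 0.0260) with OSMI were both called. The former was lost without rhWnt3a replicate 1 or 3 (adjusted p = 0.0621 and 0.0554). The latter was lost in 7 of 18 alternatives, among them the fits without vehicle replicate 2 or 3 or OSMI replicate 1 or 3 (adjusted p = 0.0533, 0.0776, 0.0997 and 0.0757) and the replicate block (0.0602), and without the 3 libraries that lay apart (0.0531). The opposite strand of this locus carries the antisense gene Gm48529 and the end of Pcsk7, and their annotated sequence coincides with 61.8% of the longest Tagln transcript. Gm48529 had 7 to 20 counts per library and Pcsk7 346 to 620. Whether the counting used strand, and how it treated reads on both genes, is not given in the sources used here, so the level of Tagln is that of the reads assigned to it, and the part of the overlap in its low counts was not tested.

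Cald1 (ENSMUSG00000029761, chromosome 6, 34598500 to 34775473, plus strand), which encodes caldesmon, an inhibitor of the actomyosin ATPase, was the member with the smallest difference from vehicle upon rhWnt3a. The vehicle libraries had 765, 788 and 671 CPM, the rhWnt3a libraries 682, 565 and 680, and the OSMI libraries 800, 823 and 876. Vehicle and rhWnt3a overlapped, with a difference of −0.21 (95% interval −0.52 to 0.11, adjusted p = 0.516). OSMI libraries lay above both other groups, but neither the difference from rhWnt3a (0.38, SE 0.14, adjusted p = 0.158) nor that from vehicle (0.17, SE 0.14, adjusted p = 0.453) was called. Its counts also sum 10 protein-coding transcripts, the smooth muscle and non-muscle caldesmons among them.

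**Figure D2:**
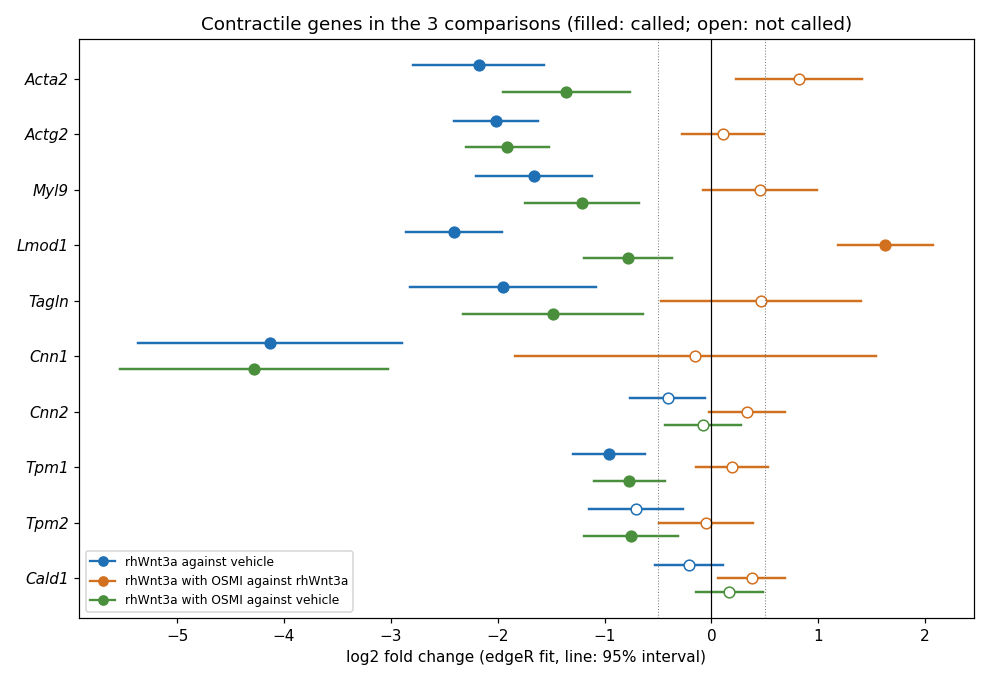
Log2 fold changes (points, edgeR fit of 9 libraries) and 95% intervals (lines) of the 10 contractile genes in the 3 comparisons, with filled points for called genes and dotted lines at a log2 fold change of 0.5 in either direction. The 7 filled blue points lie between −0.96 (Tpm1) and −4.13 (Cnn1), and Lmod1 at 1.63 is the only filled orange point.

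To compare abundance between genes, CPM was divided by the gene length in the deposited table. For Tpm1 (6485 bases) and Cald1 (12041) this length far exceeds the longest transcript in GENCODE M21 (2890 and 4777). Their places in the order below therefore depend on this divisor and would be higher with the transcript length. With vehicle, Acta2 reached 1403 ± 129 CPM per kilobase (mean ± SD, n = 3), far ahead of Cnn2 at 216 ± 18.4. Myl9 (134 ± 7.67) and Tpm1 (125 ± 1.36) followed and were within about 1 SD of each other, then Actg2 (88.2 ± 7.99), Cald1 (61.6 ± 5.15) and Tpm2 (40.1 ± 7.12). Lmod1 (4.86 ± 0.73), Cnn1 (1.30 ± 0.19) and Tagln (1.16 ± 0.43) were at the bottom, the last pair with overlapping libraries. With rhWnt3a, Acta2 still led at 310 ± 57.9 over Cnn2 at 163 ± 29.98. Myl9 (42.4 ± 10.8) had passed below Tpm1 (64.4 ± 8.38) and Cald1 (53.4 ± 5.58), and Actg2 (21.7 ± 2.86) was level with Tpm2 (24.6 ± 5.26).

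The second question was how OSMI, added to rhWnt3a, affected these genes. A single member, Lmod1, was called higher and none lower, where 1.69% and 3.05% of all tested genes were called, 4.74% in all. Unadjusted p was under 0.05 for 3 members, Acta2, Cald1 and Lmod1, and for 22.6% of all tested genes. All members but Cnn1 and Tpm2 had a positive fold change, with a median of 0.35 against −0.01 for all genes. Libraries did not overlap for Lmod1 and Cald1, both higher, which was the case for 16.7% of all genes, and no member was lower without overlap, against 17%. The number of calls rose to 3, Acta2, Lmod1 and Myl9, when the 3 libraries that lay apart were left out, and to the same 3 after removal of a gene length trend. Calls over all genes rose as well, to 12.7% and 7.08%. Compared with vehicle, 8 members were still called lower after rhWnt3a with OSMI, against 9.34% of all genes (14.2% in either direction), and Cnn2 and Cald1 were not. Libraries did not overlap for these 8 and, in the other direction, for Cald1, against 19.5% lower, 19.3% higher and 38.8% in all of the tested genes. Tpm2 was the only member called in this comparison and not with rhWnt3a alone, and the difference between these calls was not tested beyond the OSMI comparison itself. The 8 calls fell to 5 when the replicate number was fitted as a block and to 5 without vehicle replicate 2 or OSMI replicate 1. Acta2, Actg2, Myl9, Tpm1 and Cnn1 were called in each alternative that kept the fold threshold and in which they were tested, which excepts Cnn1 under a filter of 10 counts in every library. At a log2 threshold of 1, Tpm1 was lost. Both comparisons use the same vehicle libraries. Summed over the members, the libraries with OSMI held 3199, 3188 and 2533 CPM, all above the highest rhWnt3a library and below the lowest vehicle library. Abundant members weigh most in this sum. From rhWnt3a to the OSMI group, the means of Acta2 (552 to 974 CPM) and Cald1 (642 to 833) rose most in CPM. Neither rise was called. Between the nearest libraries, OSMI replicate 3 and rhWnt3a replicate 2, Cald1 differed more (876 against 565 CPM) than the sums did (2533 against 2396). Without Cald1 the order of these libraries would be reversed. That the sums of these groups do not overlap therefore rests on this uncalled gene.

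**Figure D3:**
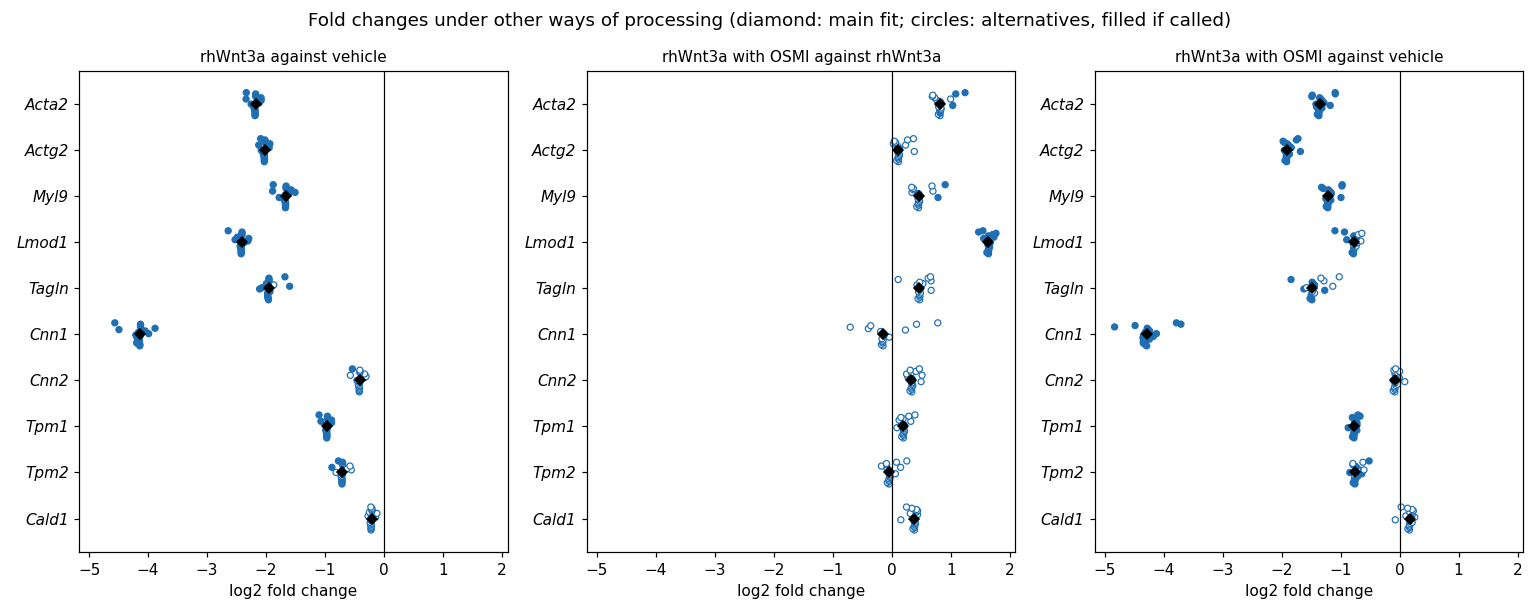
Log2 fold change of each member in the 3 comparisons (panels) in the main fit (diamonds) and in up to 19 alternative ways of processing (circles, filled where called). With rhWnt3a the members except Tpm2, Cnn2 and Tagln keep their calls or lack of them throughout, whereas upon OSMI the circles of Acta2 (0.69 to 1.24) and Myl9 (0.34 to 0.90) are filled in some alternatives and open in others.

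Other parts of the contractile apparatus were examined with 67 further genes. Of the 59 tested, 10 were called lower and 3 higher with rhWnt3a, against 5.86% and 2.92% of all genes, and their median log2 fold change was −0.23. Adding OSMI raised 7 and lowered 1, against 1.69% and 3.05%, with a median of 0.26. Against vehicle, rhWnt3a with OSMI gave 10 lower and 4 higher, against 9.34% and 4.84%. These counts ranged from 6 to 16, from 2 to 10 and from 7 to 16 when single libraries were left out.

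Among 25 cross-linkers and adhesion plaque proteins, 6 fell and 1 rose with rhWnt3a, against 5.86% and 2.92% of all genes. Tgfb1i1, the adhesion adaptor Hic-5, declined from 89.0 ± 4.80 to 40.4 ± 2.28 CPM (−1.14, SE 0.15, adjusted p = 0.000973), and the LIM protein gene Csrp1 decreased by 1.11 on the log2 scale (adjusted p = 0.00139). Smtn, encoding smoothelin, went from 136 ± 22.0 to 75.7 ± 1.24 CPM (−0.84, adjusted p = 0.0300), a call lost without vehicle replicate 1 or 2 or any 1 rhWnt3a library (adjusted p = 0.0827 to 0.136). The related Csrp2 moved the other way, to 56.3 ± 14.9 CPM (1.65, adjusted p = 0.00300), and was 4.01-fold lower again when OSMI was added (adjusted p = 0.00394). OSMI raised 4 of the 25 and lowered 1, against 1.69% and 3.05% of all genes. Among those raised were Vcl, encoding vinculin (1.20, adjusted p = 0.0345), Actn1, α-actinin 1 (0.80, adjusted p = 0.0420), and Pdlim5. The call of Vcl was lost without vehicle replicate 2 or any 1 treated library (adjusted p = 0.0526 to 0.0875), and that of Actn1 without any 1 library but vehicle replicate 3 (0.0638 to 0.130). Against vehicle, Csrp1 (−1.38), Synpo2 (−1.39), Tgfb1i1 (−0.94) and Vasp (−0.53) were lower with rhWnt3a and OSMI, where 9.34% of all genes were called lower. Synpo2 was not called without vehicle or OSMI replicate 1 or 2 (adjusted p = 0.0713 to 0.0917), nor Vasp without any 1 vehicle library, rhWnt3a replicate 1 or 3, or OSMI replicate 1 or 2 (0.0518 to 0.139).

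In the list of SRF, its partners and 3 further regulators (Klf4, Tcf21 and Hic1), Srf itself was called higher than vehicle with OSMI, as no member was. It measured 79.3 ± 4.34 CPM with vehicle, 63.8 ± 5.80 with rhWnt3a and 125 ± 16.5 with OSMI. rhWnt3a left it uncalled (−0.32, SE 0.14, adjusted p = 0.226), whereas OSMI raised it by 0.97 over rhWnt3a (SE 0.14, adjusted p = 0.00530) and by 0.66 over vehicle (adjusted p = 0.0102). The first of these calls held in 19 of 19 alternatives, though not at a log2 threshold of 1, and the second was lost without vehicle replicate 1 (adjusted p = 0.0505). Mrtfa and Mrtfb, the coactivators of SRF, were called in none of the comparisons (−0.03 and −0.12 with rhWnt3a, and 0.46 and 0.46 upon OSMI). Myocd, encoding myocardin, had at most 1 count in any library and was not tested. Fhl2, a LIM-domain cofactor, fell with rhWnt3a from 59.2 to 23.7 CPM (−1.32, adjusted p = 0.00462) and stayed lower with OSMI (−0.82, adjusted p = 0.0327, lost without any 1 vehicle or OSMI library at 0.0552 to 0.1004). Fhl1 was lower than vehicle with OSMI too (−0.64, adjusted p = 0.00636). Hic1 rose from 10.8 ± 4.20 to 43.5 ± 2.13 CPM with rhWnt3a (2.01, adjusted p = 0.0103, lost without vehicle replicate 1 or 2 at 0.0536 and 0.0542). Klf4, a repressor of smooth muscle genes, rose with OSMI (0.63, adjusted p = 0.0408), a call lost without any 1 library but vehicle replicate 3 (0.0583 to 0.127).

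Of 14 tested genes for myosin motors and the control of light chain phosphorylation, rhWnt3a lowered 1, Mylk, and raised 1, Myh14. Over all genes the shares were 5.86% and 2.92%. Myh14 was scarce, at 0.70 ± 0.14 CPM with vehicle and 2.06 ± 0.40 with rhWnt3a (1.54, adjusted p = 0.0247). Mylk, the kinase that activates the light chain, dropped from 385 ± 143 to 133 ± 36.8 CPM (−1.53, SE 0.34, adjusted p = 0.0209), a call lost without vehicle replicate 1 or 2 or any 1 rhWnt3a library (adjusted p = 0.0603 to 0.0890). OSMI raised Rock2, a kinase that blocks light chain dephosphorylation, over rhWnt3a (0.73, adjusted p = 0.0185, lost without rhWnt3a replicate 2 or 3 or OSMI replicate 1 or 2 at 0.0550 to 0.0700) and over vehicle (1.01, adjusted p = 0.00119). Rock1 was 0.62 higher than vehicle with OSMI (adjusted p = 0.0111), and Rhoa, the GTPase that activates both, was lower (−0.61, adjusted p = 0.0127, lost without vehicle replicate 2 or OSMI replicate 1 or 2 at 0.0526 to 0.0577).

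Among 9 tested paralogs of the members, the cytoplasmic γ-actin gene Actg1 decreased with rhWnt3a from 1579 ± 149 to 888 ± 129 CPM (−0.83, SE 0.17, adjusted p = 0.0148), a call lost without vehicle replicate 2 or rhWnt3a replicate 1 or 3 (adjusted p = 0.0649 to 0.0984). Actb, the β-actin gene often used as a reference, was not called (1554 ± 219, 1230 ± 178 and 1347 ± 282 CPM in the 3 groups). Acta1, skeletal α-actin, went from 12, 29 and 41 counts to 3, 0 and 3, which was called as well (adjusted p = 0.0103). Tagln2 was called lower only against vehicle with OSMI present (−1.19, adjusted p = 0.00710). Cnn3, Tpm3, Tpm4, Myl12a and Myl12b were called in none of the comparisons.

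**Figure D4:**
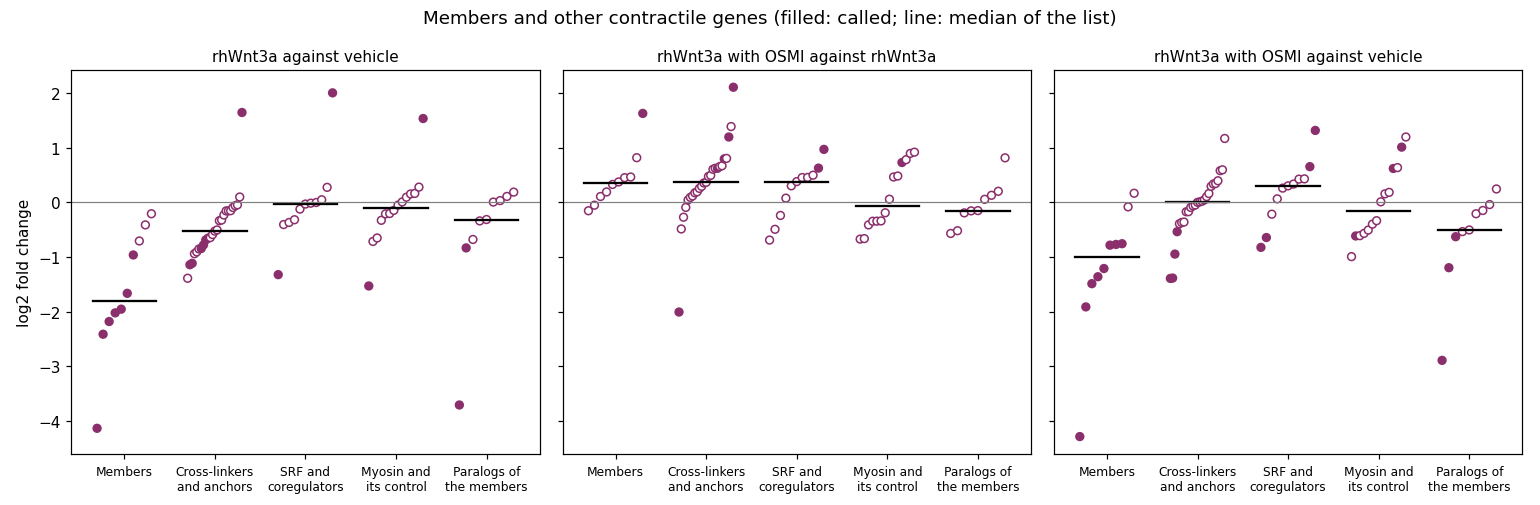
Log2 fold changes of the tested members and of 4 lists of other contractile genes in the 3 comparisons (panels), each point a gene, filled where called, with the median of each list as a line. The members' median of −1.81 with rhWnt3a lies below the medians of the other lists, and Lmod1, Vcl and Srf are among the filled points above 0 upon OSMI.

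Markers of the cell types in which these genes are best known were examined next. Of 10 markers of smooth muscle and pericytes, 5 were tested. With rhWnt3a, 3 of these were called lower and 1 higher, against 5.86% and 2.92% of all genes. Myh11, smooth muscle myosin, had 1 to 9 counts per library, Kcnj8 none, and Rgs5 and Abcc9 at most 2 and 1. The list summed to 128 to 181 CPM with vehicle, 87.2 to 95.4 with rhWnt3a and 95.1 to 157 with OSMI, most of it Smtn. Within it, Cspg4 fell with rhWnt3a from 19.5 to 5.77 CPM (−1.76, adjusted p = 0.00635) and Notch3 rose (2.16, adjusted p = 0.0123, lost without vehicle replicate 1 or rhWnt3a replicate 3 at 0.0573 and 0.0516). Des, encoding desmin, was 3.02 ± 0.49 and 3.24 ± 0.40 CPM with vehicle and rhWnt3a but 0.488 ± 0.078 with OSMI (−2.71, adjusted p = 0.00156). Of 14 markers of skeletal and cardiac muscle, Myod1, Myf5, Ckm, Myh1 and Myl1 were at 0 in all libraries, and the list summed to at most 4.14 CPM. Tnnt3, a troponin of fast skeletal muscle, was detected, with 42, 39 and 26 counts with vehicle, 5, 3 and 1 with rhWnt3a and 0, 1 and 2 with OSMI. It was called lower than vehicle in both treated groups (adjusted p = 0.00295 and 0.000930). Of 11 stromal markers, 3 were called lower and 2 higher with rhWnt3a, against 5.86% and 2.92% of all genes. The rest of that list was not called, and its median log2 fold change was −0.15. Cxcl12, a chemokine of marrow stroma, declined from 1323 to 266 CPM (−2.31, adjusted p = 1.64e-05), Ly6a and Vcam1 fell as well (−1.53 and −0.93), and Prrx1 and Twist1 rose (0.88 and 1.04, the latter lost without vehicle replicate 2 at adjusted p = 0.0521). Upon OSMI, Ly6a and Vcam1 were called lower again (−1.73 and −0.96, adjusted p = 0.00273 and 0.00666, Vcam1 not without OSMI replicate 2 at 0.0525). The part of these markers in the changes of the contractile genes was not tested.

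The myofibroblast genes outside the contractile apparatus, 12 of 15 tested, gave another pattern. With rhWnt3a, 2 were called lower, against 5.86% of all genes, and none higher. Among the former was Tnc, which encodes the matrix protein tenascin C (−2.16, adjusted p = 0.00420). Upon OSMI the matrix genes Col3a1 and Postn fell by 1.99 and 1.72 on the log2 scale (adjusted p = 0.0170 and 0.0112), while no contractile member was called lower. Col3a1 was not called without any 1 rhWnt3a library or OSMI replicate 1 or 2 (0.0526 to 0.0799), nor Postn without OSMI replicate 1 or 2 (0.0548 and 0.0667). Against vehicle, 5 of the 12 were lower with rhWnt3a and OSMI, against 9.34% of all genes, the largest decreases being those of Tnc and Postn (both −2.67).

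Across the 9 libraries, the log2 CPM of Tpm1, Myl9, Acta2 and Actg2 followed the mean of the other members closely (Pearson r of 0.97 to 0.99), whereas Cald1 did not (0.12). Once group means were removed, Actg2, Acta2, Tpm1 and Myl9 still varied together (0.95 to 0.98), while Lmod1 (−0.54) and Cald1 (−0.77) ran against the others. These values describe 9 libraries that share treatment and the split between replicates, which also orders other genes. The genes outside the list whose log2 CPM was most like the members' mean, of 9273 compared, were Cdc42ep3, Sgk1, Lims2, Depp1 and Akr1c14 (r of 0.98 to 0.99). Cdc42ep3, an effector of the GTPase Cdc42, measured 70.7 ± 1.33, 31.2 ± 4.56 and 40.1 ± 6.64 CPM in the vehicle, rhWnt3a and OSMI groups. Lims2, an adhesion adaptor, measured 15.8 ± 1.82, 4.58 ± 0.71 and 7.25 ± 1.51.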

How the data were processed

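RNA of 9 libraries of ST2 cells was sequenced by Novogene after poly-A selection. Counts of reads per gene were deposited by the authors without normalization. The submitters' processing notes list CASAVA, fastp, HISAT2 2.0.5 and featureCounts 1.5.0-p3 with mm10, and the settings for strand and for reads on several genes are not given in the sources used here. The deposited FPKM values and the gene length column come from the same table, and FPKM was not used in any test. The deposited columns of group means, fold changes and p-values hold the comparisons of the authors and were not used.

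Counts were fitted in R 4.3.3 with edgeR 4.0.16 (filterByExpr, TMM, glmQLFit on 3 groups, two-sided glmQLFTest, Benjamini-Hochberg adjustment over 14004 genes). Standard errors and 95% intervals came from the fit. DESeq2 1.42.0 served as an alternative, and the scripts were tested on simulated data. Transcripts were compared with BLAST 2.17.0 in GENCODE M21, which has the coordinates of the table for 9 of the 10 members, Acta2 ending at 34255590 there. Promoter sequences are those of RefSeq on GRCm38.p6. Symbols changed since the annotation were matched by their older form.

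The members and lists were chosen with earlier results of these data known. All members were named. From the other lists, up to 4 called genes per comparison with the largest fold change and an average log2 CPM of at least 1 were named, besides the genes around SRF and the actin paralogs. The markers at or near 0, the paralogs named as not called, and Pdlim5, Myh14, Prrx1 and Tnnt3 were named after their values were seen. The calls of Pdlim5, Myh14, Prrx1, Tnnt3 and Acta1 were not tried in the alternatives. Replicate numbers stand in the titles, and no source says that they pair the libraries. The labels do not say whether replicates were separate cultures, so p-values measure the spread between these libraries. Intervals of ratios of counts cover counting error only. Some genes that the rule would name are not reported here.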

Additional observations from a re-analysis of the deposited data

How the results depend on the processing

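Among alternatives that kept the fold threshold of 0.5 and in which the gene was tested (Cnn1 and Tagln were not under a filter of 10 counts in every library), 6 of 7 members called with rhWnt3a kept their call throughout, as did 1 of 1 upon OSMI and 5 of 8 for rhWnt3a with OSMI against vehicle, and 27 of the 51 calls of other named genes did (these alternatives were chosen after the data were seen). Counts of called genes are given below in the order rhWnt3a against vehicle, OSMI added to rhWnt3a, and rhWnt3a with OSMI against vehicle, where the values reported were 7, 1 and 8 members, 13, 8 and 14 other contractile genes, and 1230, 664 and 1986 of all genes. With single libraries left out there were 6 to 8, 1 to 2 and 5 to 8 members, 6 to 16, 2 to 10 and 7 to 16 other contractile genes, and 716 to 1506, 203 to 764 and 1218 to 2328 of all genes. DESeq2 on the 6 libraries compared, without filter and with unadjusted p, gave 2 members upon OSMI, 24 and 22 other contractile genes in the first and second comparison, and 2431, 2460 and 3459 of all genes. Upon OSMI, the DESeq2 Wald test on 9 libraries gave 2 members and 1289 of all genes, no filter on low counts gave 2, 17 other contractile genes and 1481, and the fit of 6 libraries gave 5 other contractile genes and 345. With the gene length trend taken out, 20 other contractile genes were called with rhWnt3a and 3 members upon OSMI. Without the 3 libraries that lay apart, there were 3 members upon OSMI, 24 and 14 other contractile genes in the first and second comparison, and 2557, 1789 and 3351 of all genes. A log2 threshold of 1 left 5 members against vehicle with OSMI, 8, 3 and 6 other contractile genes, and 796, 380 and 1118 of all genes.

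With the replicate number as a block, 7, 1 and 5 members were called, 9, 2 and 11 other contractile genes, and 809, 233 and 1297 of all genes. After removal of group means, libraries with the same number correlated at −0.49 to 0.44 (mean −0.12). These values also hold the split between replicates, so they cannot tell whether libraries with the same number belong together.

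Some directions that had not been called were reversed. Upon OSMI, Tpm2 turned to 0.0603 without the length trend, to 0.15 without rhWnt3a replicate 2, to 0.08 without OSMI replicate 3 and to 0.25 without the 3 libraries, and Cnn1 turned to 0.23, 0.42 and 0.78 in the last 3 of these. Against vehicle with OSMI and without the length trend, Cnn2 turned to 0.0867 and Cald1 to −0.0746. With single libraries left out, Tpm2 ranged from −0.18 to 0.15 upon OSMI and Cnn1 from −0.71 to 0.42. The cause was not tested. Scaling by DESeq2 size factors or upper quartiles moved the median of all genes by less than 0.1 on the log2 scale and reversed no member. Depth limits Cnn1, Tagln and the markers near 0.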
